A study of Homo sapiens with 34 samples.

Results

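Trimethylation of histone H3 at lysine 4 (H3K4me3) is best known as the mark of gene starts, and the regions described here carried it away from every start of a protein-coding gene. The regions were chosen by their H3K4me3 peaks in KELLY cells. Peaks of the 6 H3K4me3 libraries were merged where they shared a base, which gave 29774 regions on chromosomes 1 to 22 and X. Of these, 19562 held a peak of all 6 libraries and 18198 of them were under 4 kb wide. The 4506 regions more than 5 kb from all 145921 annotated start sites of 19970 protein-coding genes (GENCODE release 44, genome build hg38) are called distal H3K4me3 regions below. The remaining 13692, selected in the same way but within 5 kb of a coding start, are called coding-start regions and serve for comparison.

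KELLY is a human neuroblastoma cell line with MYCN amplification. Here it carried an shRNA against RUNX1T1, a transcriptional corepressor, whose expression is switched on by doxycycline; which of the hairpins used in the study was present in these libraries is not stated in the sources used here. The cells had been kept for 72 h with DMSO, the control, or with doxycycline, and both treatments carried the hairpin construct. No RNA was measured in these libraries, so the level of RUNX1T1 was not checked. Chromatin immunoprecipitation followed by sequencing (ChIP-seq) was available for H3K4me3, H3K4me2, H3K4me1, H3K27ac and H3K27me3, each with 3 libraries per treatment. All libraries came from a single line, and nothing in the labels says whether replicates were separate cultures, so p-values measure only the spread between libraries. Libraries held 57.1 to 85.2 M reads. The depth used for calling peaks was 71.9 to 81.1 M reads in DMSO and 57.0 to 63.4 M in doxycycline, so calling depth and treatment go together and cannot be told apart. In H3K27me3, the caller's fragment length estimate split the libraries, at 256 to 280 bp in DMSO replicate 1 and doxycycline replicates 1 and 2, and at 105 to 112 bp in the other three.

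H3K4me3 is laid down by the SET1 and MLL methyltransferase complexes, which are drawn to unmethylated CpG-rich DNA and to initiating RNA polymerase II. Long non-coding RNA (lncRNA) genes and pseudogenes have promoters with the same mark, and strong enhancers, which typically carry H3K4me1 with H3K27ac, can show some of it as well. H3K4me2 spreads over both kinds of element. H3K27me3 is the product of Polycomb repressive complex 2, and its presence together with H3K4me3 is known as bivalency. A peak list shows where a mark was called, and an element without a called peak may still carry the mark below the threshold.

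The distal regions were first sorted by what the annotation places at them. Within 1 kb of 1218 regions (27.03%) lay the start of a lncRNA transcript, at 325 (7.21%) a start of another annotated transcript type and at 2963 (65.8%) no annotated start. Gene context was read at the midpoint of each region. Most midpoints (3427, 76.1%) lay outside coding genes, 971 (21.5%) lay in an intron of a coding gene and 108 (2.40%) in one of its exons. By midpoint, lncRNA-start regions were outside coding genes in 91.1% of cases, against 68.8% of those with no start, of which 28.1% were intronic. The median distance to a coding start was 33.0 kb, with quartiles at 14424 and 85408 bp.

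Sequences at the centre of some regions are given to show how base composition varied among them. Each is 200 bases of the plus strand of hg38 centred on the median H3K4me3 summit, with CG dinucleotides in capitals. Rank below is the mean percentile of a region's H3K4me3 peak, by -log10 q, within the 6 lists. The window at the start of NORAD, a conserved RNA that binds Pumilio proteins, had 25 CG dinucleotides.

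NORAD, chr20:36050565-36050764: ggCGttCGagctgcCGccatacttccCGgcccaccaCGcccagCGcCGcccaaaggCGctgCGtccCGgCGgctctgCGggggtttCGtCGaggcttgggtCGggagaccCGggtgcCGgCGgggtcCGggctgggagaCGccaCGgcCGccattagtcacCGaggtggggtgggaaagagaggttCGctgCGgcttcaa

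Among regions without an annotated start, one 11.7 kb from ENPP7 carried H3K27me3 in all 6 libraries, and its window had 28 CG dinucleotides.

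Near ENPP7, chr17:79748179-79748378: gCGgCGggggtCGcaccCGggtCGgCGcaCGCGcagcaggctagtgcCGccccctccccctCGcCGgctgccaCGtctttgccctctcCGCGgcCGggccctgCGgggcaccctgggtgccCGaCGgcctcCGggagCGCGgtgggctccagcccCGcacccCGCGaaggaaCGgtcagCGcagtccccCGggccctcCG

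By contrast, a region 70.2 kb from a start of GATA2, a transcription factor gene of the sympathetic lineage, had 3. A region 958 kb from the nearest coding start, that of XPNPEP1, had 12, and its H3K27ac peak was called in the DMSO libraries alone.

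Near GATA2, chr3:128409814-128410013: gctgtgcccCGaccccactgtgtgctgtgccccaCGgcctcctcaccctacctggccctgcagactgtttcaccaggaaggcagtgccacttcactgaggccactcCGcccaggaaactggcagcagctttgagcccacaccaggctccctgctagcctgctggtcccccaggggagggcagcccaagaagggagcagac

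Beyond XPNPEP1, chr10:108912078-108912277: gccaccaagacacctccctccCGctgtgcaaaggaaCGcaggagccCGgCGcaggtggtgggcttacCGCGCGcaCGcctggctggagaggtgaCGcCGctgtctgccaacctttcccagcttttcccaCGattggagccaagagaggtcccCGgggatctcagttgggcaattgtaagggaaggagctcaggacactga

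The distal regions were narrower and weaker in H3K4me3 than coding-start regions. Their median width was 1179.5 bp, from 316 to 3982 bp, and that of coding-start regions 2158 bp. Fold enrichment is the ratio of ChIP signal to local input that the peak caller gave, and the median of each region's mean over the 6 libraries was 10.3 for distal regions and 29.9 for coding-start regions. Within the distal regions it was 17.4 at lncRNA starts, 11.1 at other starts and 8.69 where no start was annotated. These values describe the mark that chose the regions and carry no test.

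The order of the classes was the same in each library. Regions with no start had a median fold of 9.10, 9.41 and 6.30 in the DMSO replicates and 11.0, 10.04 and 6.56 in the doxycycline replicates. For lncRNA starts the medians were 17.6, 18.9 and 11.5 in DMSO and 20.9, 19.5 and 12.0 in doxycycline. Replicate 3 was lowest in both treatments in these classes, and fold values across libraries depend on depth and input, so they were not compared between treatments.

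**Figure D1:**
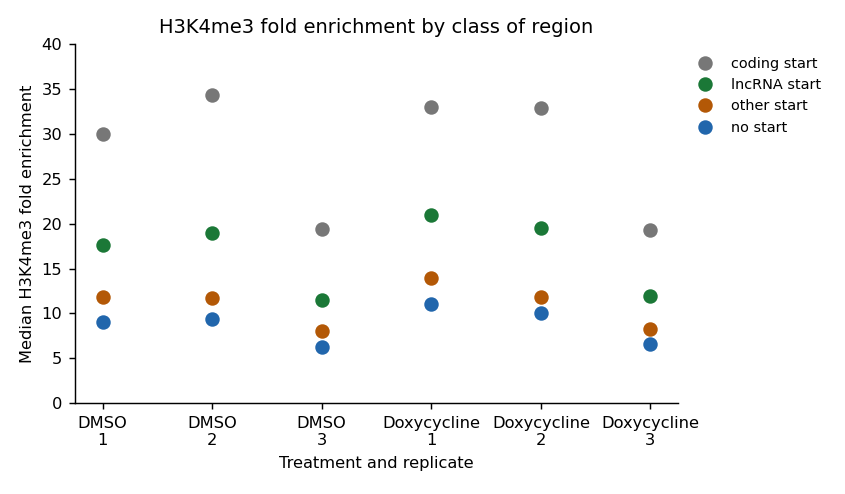
Median H3K4me3 fold enrichment over local input (vertical axis, linear) in each of the 6 libraries for lncRNA-start, other-start and no-start distal regions and for coding-start regions. In every library coding-start regions were highest and no-start regions lowest, with values of 6.30 to 11.0 for the no-start class.

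The thresholds of the rule cut through a continuum. The widest region kept, at 3982 bp, lay 7.28 kb from a start of GRIN1, an NMDA receptor subunit gene, and the narrowest left out for width was 4000 bp wide and lay 171008 bp from a coding start. The region nearest to a coding start lay 5013 bp from NRN1, and the one just outside lay 4996 bp from CALML6. Regions more than 5 kb from coding starts and under 4 kb that had a peak in 5 lists numbered 1196 with a median fold of 4.78 in those lists, against 10.3 for the members, and 2464 appeared in a single list with a median of 3.61.

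The position of the mark relative to lncRNA starts is a description, since a start within 1 kb of the region defined the class and bounds the distances. Of the 1218 regions, 1063 (87.3%) contained the start itself, and 1163 lncRNA genes were involved. The nearest lncRNA had a gene symbol at 540 of the regions and an identifier alone at 678. The H3K4me3 summit lay a median of 116 bp downstream of the nearest lncRNA start, with quartiles at -112 and 250 bp, negative values lying upstream. The summit was downstream in 795 regions (65.3%) and within 500 bp of the start on either side in 983 (80.7%).

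**Figure D2:**
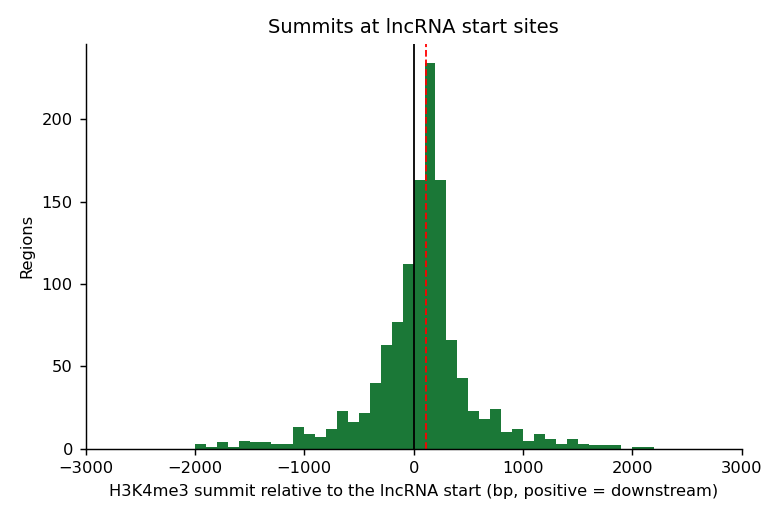
Distance of the H3K4me3 summit from the nearest lncRNA start in 1218 regions (horizontal axis, bp, positive in the direction of transcription; vertical axis, regions per 100 bp). The red dashed line is the median of 116 bp downstream and the black line the start.

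The lncRNA-start regions of highest H3K4me3 rank were those of LINC01311, ENSG00000290835, ZNF767P, ENSG00000291136, RRP7BP and ENSG00000291207. At LINC01311 (chr22:19170475-19173328, 5.15 kb from SLC25A1) the fold was 40.1, 47.2 and 27.7 in DMSO and 43.1, 36.2 and 27.7 in doxycycline. It carried H3K27ac, H3K4me1, H3K4me2 and H3K27me3 in all 6 libraries, and the other five carried the first 3 of these marks in all 6 and H3K27me3 in 0.

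Known lncRNAs were followed through a list of 48 names. Of these, 23 had at least 1 distal H3K4me3 region within 1 kb of a start. Another 3 (HOTTIP, DLX6-AS1 and TUG1) had a region near a coding start instead. A further 21 had no region in either set and 1 was not in the annotation. Both sets leave out regions of 4 kb or wider and those without a peak in all 6 libraries. The 21 may therefore still carry H3K4me3. The 23 names covered 32 regions, with a median fold of 19.6 against 17.4 over all lncRNA-start regions. H3K27ac was called in all 6 libraries at 22 of the 32 and H3K27me3 at 4, beside 68.6% and 15.6% of all lncRNA-start regions.

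Many of the strongest belonged to broadly expressed RNAs. The highest mean fold of the listed regions was 45.2 ± 14.7 (SD over 6 libraries), at SNHG6. NORAD (chr20:36048365-36051667) had a fold of 43.6, 61.2 and 23.7 in DMSO and 50.1, 41.9 and 34.5 in doxycycline, and the treatments overlapped. The imprinted antisense transcript KCNQ1OT1 had a mean fold of 35.1 ± 12.2 (SD over 6 libraries), DANCR 34.5 ± 7.22 and SNHG12, a snoRNA host, 34.0 ± 11.0. The region at MALAT1, an abundant nuclear RNA, was lower at 11.1 ± 3.05, and it lay 145 bp from the start without containing it. All of these regions carried H3K27ac, H3K4me1 and H3K4me2 in all 6 libraries and H3K27me3 in none.

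Some host transcripts of neural microRNAs were also marked, while MIR124-1HG and MIR124-2HG of the same list had no region in either set. MIR137HG had 2 regions, with mean folds of 36.6 ± 8.24 and 23.8 ± 5.40, MIR9-1HG 2, with 25.9 ± 9.26 and 20.7 ± 8.79, and MIR9-3HG 1, with 22.05 ± 8.45. All 5 carried H3K27ac in 6 of 6 libraries. The stronger MIR9-1HG region also had H3K27me3 in 5 of 6 libraries, and the other four had it in none. The 2 regions of LINC00461, 5049 and 7140 bp from a start of MIR9-2, had H3K27me3 in 6 of 6 and are described next.

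A smaller group of listed lncRNAs carried H3K27me3. CASC15, near SOX4 in a neuroblastoma susceptibility locus, had H3K27me3 in all 6 libraries and H3K27ac in none, with a mean H3K4me3 fold of 18.5 ± 5.26. PANTR1, 7.62 kb from the neural transcription factor gene POU3F3, had both marks in all 6 libraries (fold 21.0 ± 6.15). LINC00461 had 1 region with both marks in 6 of 6 and a second, at MEF2C-AS2, with H3K27me3 in 6 and H3K27ac in 1. RMST, a neurogenic lncRNA, lacked a peak of either mark in all 6 libraries while its fold was 14.7 ± 4.74. JPX and CYTOR had H3K27ac in 6 libraries and H3K4me1 in 0, with H3K4me2 in 4 and in 1. H3K27me3 was called at CYTOR in 1 DMSO and 2 doxycycline libraries and at JPX in 0. At 1 of 3 LINC00511 regions (fold 30.7 ± 9.56) it was likewise called in 1 DMSO and 2 doxycycline libraries. The summit sequence at CYTOR had 2 copies in the genome.

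Regions at other transcripts were mostly pseudogene starts (238 of 325, 73.2%), followed by 28 at snRNA starts, 19 at starts of a provisional type (TEC), 8 at microRNAs and 7 at snoRNAs. The snRNA regions included RNU4-1, RNU6ATAC and U1 and U2 copies, which make the RNA of the spliceosome, and 24 of 28 had H3K27ac in all 6 libraries and 4 had H3K27me3 in all 6. Of the pseudogene regions, 103 (43.3%) had H3K27ac in all 6 and 86 (36.1%) had H3K27me3 in all 6. At FRG1GP (chr22:12601343-12603732), the pseudogene region of highest rank, the fold was 29.2, 27.03 and 19.3 in DMSO and 31.8, 34.8 and 24.5 in doxycycline. Counts over near-identical copies are uncertain, and their extent is given with the regions most distant from coding genes.

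The other marks at the distal regions were measured in libraries that the rule had not used. H3K27ac was called at 76.4, 71.8 and 69.6% of the 4506 regions in the DMSO replicates and at 73.2, 67.4 and 66.2% in the doxycycline replicates. H3K4me1 was called at 95.0, 87.2 and 89.0% in DMSO and 94.3, 85.4 and 88.5% in doxycycline, and H3K4me2 at 99.1, 96.8 and 93.9% and 98.9, 95.5 and 98.3%. H3K27me3 was called at 22.4, 17.2 and 16.96% in DMSO and 25.6, 21.6 and 18.9% in doxycycline. Almost all distal regions thus carried H3K4me2 and most carried H3K4me1, with 3505 (77.8%) having H3K4me1 in all 6 libraries and 123 (2.73%) in none. Those 123 included 22 that lacked H3K4me2 as well, had a median width of 772 bp and fell into lncRNA, other and no-start classes as 38, 36 and 49.

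**Figure D3:**
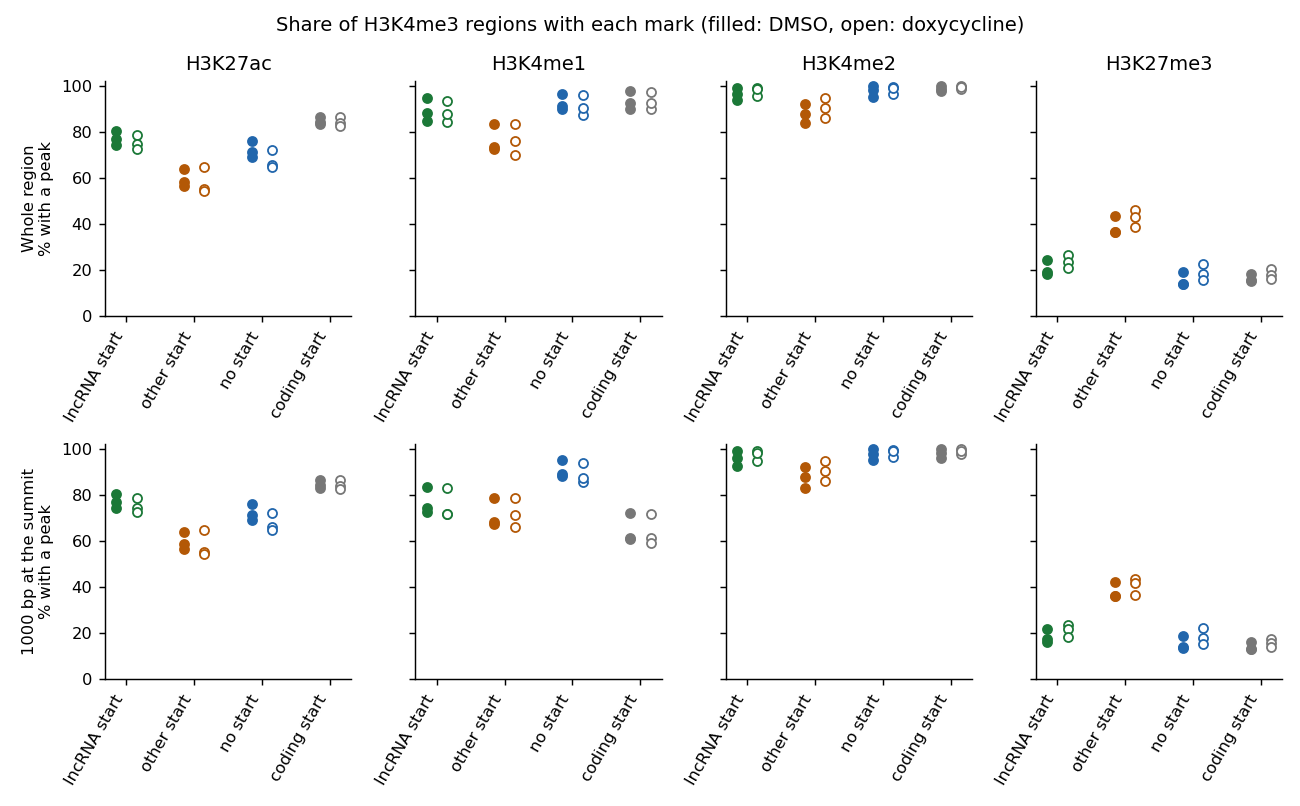
Percentage of regions with a peak of each mark (vertical axis) by class of H3K4me3 region, each point a library, filled for DMSO and open for doxycycline (n = 3 each). The upper row asks for a peak anywhere in the region and the lower row within 1000 bp centred on the H3K4me3 summit, where H3K4me1 was called at 80.3 to 90.8% of distal and 59.3 to 72.3% of coding-start regions.

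Distal regions carried H3K27ac less often than coding-start regions. The share was 70.8% ± 3.79 at distal and 84.5% ± 1.60 at coding-start regions (mean ± SD, 6 libraries), a difference of -13.7 percentage points that was negative in 6 of 6 libraries (exact two-sided sign-flip permutation over libraries, p = 0.03125, the smallest that 64 flips allow, Benjamini-Hochberg adjusted over the 4 marks 0.03125). The same test compares the same regions in each library, so it covers the spread between libraries and not that between regions. For H3K4me2 the difference was -1.91 points, negative in 6 of 6 libraries with the same exact and adjusted p of 0.03125. In a window of equal length, the 1000 bp centred on the summit, a setting chosen after seeing the data, the H3K27ac difference was -13.6 and the H3K4me2 difference -1.51 points (exact p = 0.03125 each). With peaks of q 0.001 or less they were -16.8 and -1.91 points and no longer passed after adjustment (exact permutation, adjusted p = 0.0625 each). The H3K4me2 difference was -1.20 with 1 start per coding gene and -0.996 among regions whose summit sequence occurs once in the genome. The 2 sets also differed in H3K4me3 fold (median 10.3 against 29.9), whose part in the H3K27ac difference was not tested. H3K27ac was called in all 6 libraries at 80.4% of coding-start regions. In distal regions cut into 4 groups by H3K4me3 fold, it was so at 54.0, 46.7, 58.5 and 86.3%, from lowest to highest.

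H3K4me1 depended on where it was sought. Over whole regions it was called at 89.9% ± 3.87 of distal and 93.3% ± 3.43 of coding-start regions, a difference of -3.37 points (6 of 6 libraries, exact p = 0.03125, adjusted 0.03125). It was -2.46 points with peaks of q 0.001 or less (exact p = 0.156, adjusted 0.156), -1.33 with 1 start per coding gene and -1.77 among regions with a unique summit sequence. Within the 1000 bp window the shares in DMSO were 90.8, 82.6 and 83.4% at distal and 72.3, 61.4 and 60.7% at coding-start regions. In doxycycline they were 89.9, 80.3 and 81.7% against 71.5, 61.4 and 59.3%. The difference was then 20.4 points in the opposite direction, positive in all 6 libraries (exact p = 0.03125, adjusted 0.03125). Requiring H3K4me1 peaks to cover at least 50% of the region gave 23.7 points.

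H3K27me3 was called at 20.4% ± 3.39 of distal and 17.3% ± 2.06 of coding-start regions, a difference of 3.13 points that was positive in 6 of 6 libraries (exact p = 0.03125, adjusted 0.03125). This difference did not hold under every setting. It was 1.51 points (exact p = 0.094, adjusted 0.125) with peaks of q 0.001 or less. It was -0.29 points when the regions were rebuilt with peaks of at least 2 of 3 libraries per treatment (6481 distal regions, exact p = 0.469), and 1.55 points (exact p = 0.0625) among regions whose summit sequence occurs once in the genome.

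Within the distal regions, lncRNA starts were compared with regions without a start. H3K27ac was called at lncRNA starts in 80.5, 76.7 and 74.3% in DMSO and 78.4, 74.5 and 72.7% in doxycycline, and at regions without a start in 76.1, 71.2 and 69.1% and 72.0, 65.8 and 64.8%. The share was higher at lncRNA starts by 6.33 points, in 6 of 6 libraries (exact p = 0.03125, adjusted over the 4 marks 0.03125). The size depended on the setting, at 1.74 points with at least 2 of 3 lists per treatment (6481 regions), 3.15 with 50% coverage and 3.27 with 1 start per coding gene (exact p = 0.03125 each). H3K27me3 was also more frequent there, at 22.3% ± 3.21 against 17.5% ± 3.41, a difference of 4.82 points in 6 of 6 libraries (exact p = 0.03125, adjusted 0.03125), and 7.84 with at least 2 of 3 lists. The H3K4me1 difference was -2.96 points over whole regions and -13.8 in the window at the summit, each in 6 of 6 libraries with the same exact and adjusted p of 0.03125. H3K4me2 differed by -0.93 points (exact p = 0.03125, adjusted 0.03125), which shrank to -0.17 (exact p = 0.156) where the start had to lie inside the region. The lncRNA-start regions were wider, with a median of 1596.5 bp against 1098 bp, and in the window of equal length the H3K27ac and H3K27me3 differences were 6.24 and 2.98 points (exact p = 0.03125 each).

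Other-start regions had the lowest H3K27ac and the highest H3K27me3 shares of the distal classes. H3K27ac was called at 54.5 to 64.9% of the 325 regions over the 6 libraries and H3K27me3 at 36.6 to 46.2%. H3K4me1 was called at 70.2 to 83.4% of them. These ranges did not overlap those of lncRNA-start regions for any of the 3 marks, and no test was planned for this class.

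H3K27ac and H3K27me3 were each called in at least 1 library at 506 distal regions, 40.9% of the 1236 with any H3K27me3 peak and 14.1% of the 3583 with any H3K27ac peak. H3K27ac was in all 6 libraries and H3K27me3 in none at 2498 regions (55.4%), and the opposite held at 452 (10.03%). Both marks were in all 6 libraries at 81 (1.80%), neither was in any at 193 (4.28%), and 1282 (28.5%) were called in some libraries only. The regions with H3K27me3 and no H3K27ac made up 8.88% of the no-start, 9.61% of the lncRNA-start and 22.2% of the other-start class.

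**Figure D4:**
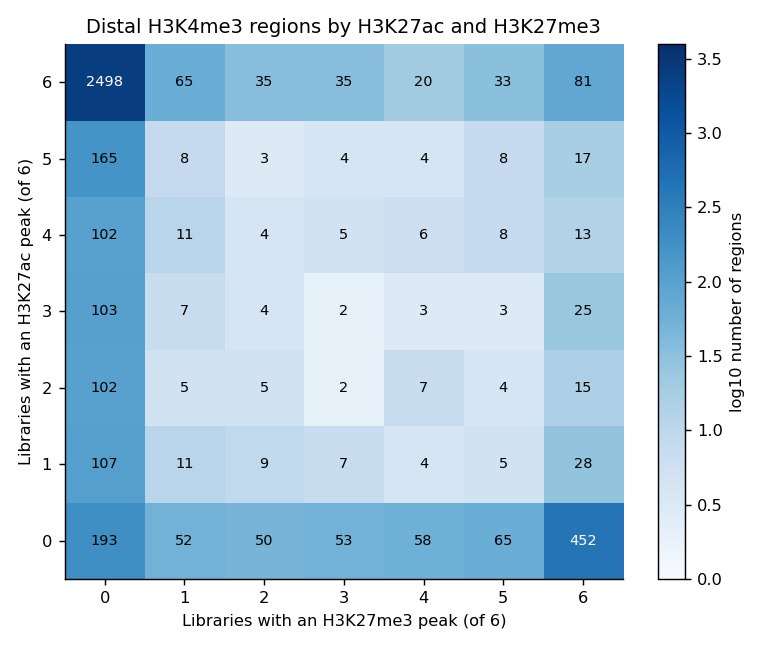
Number of distal H3K4me3 regions by how many of 6 libraries called H3K27me3 (horizontal axis) and H3K27ac (vertical axis), coloured on a log10 scale. The corners hold 2498 acetylated, 452 H3K27me3-marked, 81 doubly marked and 193 unmarked regions.

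Base composition differed between these states. A region was called CpG-rich with a GC content of at least 50% and an observed over expected CpG ratio of at least 0.6, which held for 1504 distal regions (33.4%) and 58.7% of coding-start regions. By class it held for 44.5% at lncRNA starts, 61.2% at other starts and 25.8% without a start. Of the 452 regions with H3K27me3 and no H3K27ac, 351 (77.7%) were CpG-rich, with a median CpG ratio of 0.71 and GC of 64.4%. Of the 2498 acetylated regions without H3K27me3, 588 (23.5%) were CpG-rich, with a median ratio of 0.45 and GC of 54.4%. The acetylated regions were also wider (median 1415.5 against 997.5 bp) and stronger in H3K4me3 (median fold 11.9 against 7.94). The CpG difference was not particular to distal regions. At coding starts, 93.1% of the 1297 regions (9.47%) with H3K27me3 and no H3K27ac were CpG-rich, against 52.0% of the 10081 acetylated ones.

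Split the other way, by a division made after seeing the data and given without a test, CpG-rich distal regions had H3K27me3 in 34.8 to 46.9% of cases over the 6 libraries and other distal regions in 7.89 to 15.0%. H3K27ac was called at 53.5 to 63.2% of CpG-rich and 72.6 to 83.0% of other distal regions. Neither pair of ranges overlapped.

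**Figure D5:**
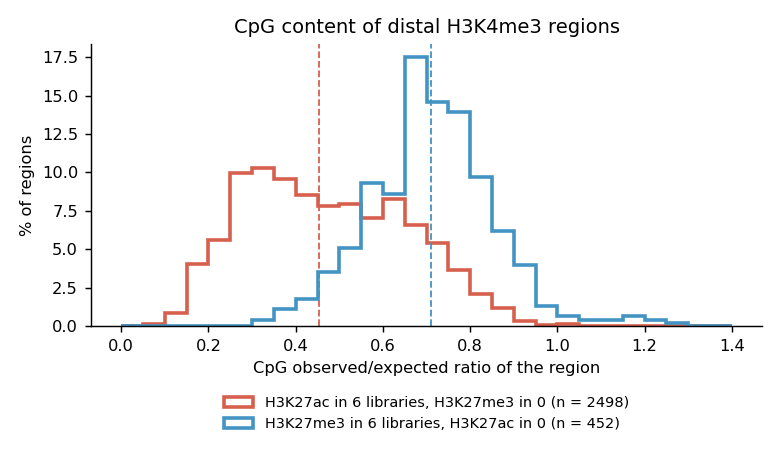
Observed over expected CpG ratio (horizontal axis) of distal regions with H3K27ac in 6 libraries and H3K27me3 in 0 (red, n = 2498) and with H3K27me3 in 6 and H3K27ac in 0 (blue, n = 452), as percent of each set (vertical axis). Dashed lines are medians, 0.45 and 0.71.

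The strongest distal regions were acetylated. With the regions cut into 4 groups of equal size by mean H3K4me3 fold, in the lowest (2.33 to 6.60), 54.0% had H3K27ac in all 6 libraries, 15.4% had H3K27me3 in all 6 and 12.7% had a lncRNA start. In the highest (18.6 to 58.2) the shares were 86.3, 7.45 and 49.7%. The shares did not move in even steps, since H3K27ac in all 6 was at 46.7% in the next-lowest group. Of the 1127 regions in the highest group, 42.1% had no annotated start.

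Among regions without a start, the 6 of highest rank had ERV3-1, SRGAP2B, PKDCC, CSF1, OR4F5 and GRIN1 as the nearest coding genes. The summit sequence near OR4F5 had 5 copies in the genome, so its position is uncertain. The region near GRIN1 had folds of 39.6, 36.2 and 27.2 in DMSO and 26.9, 31.9 and 19.7 in doxycycline. The one 206 kb from PKDCC (chr2:41840547-41841963) had 53.1, 38.01 and 36.4 in DMSO and 28.8, 38.2 and 20.8 in doxycycline. That near CSF1, which encodes a macrophage growth factor, lay in a CSF1 intron and had a low CpG ratio of 0.23. All 6 had H3K27ac in all 6 libraries, and that near SRGAP2B alone had H3K27me3, also in all 6.

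Distal regions near transcription factor genes of neuroblastoma were counted in a list of 24 genes. A region lay within 100 kb of a start of 14 of them, 28 regions in all, and 10 had none, including HAND2, GATA3 and MYCN. The share of all coding genes with a distal region within 100 kb was not computed. Whether 14 of 24 is more than for other genes was therefore not tested. H3K27ac was called in all 6 libraries at 22 of the 28, H3K27me3 in all 6 at 1, and 22 had no annotated start. Over all distal regions, 61.4% had H3K27ac in all 6 and 14.0% H3K27me3 in all 6.

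GATA2 had 5 such regions, the most of the list, spread over chr3:128408370-128433763 and 48.2 to 70.2 kb from its start. All 5 lay nearer to a start of another coding gene, DNAJB8. The region nearest to GATA2 had a mean H3K4me3 fold of 16.1 ± 5.55 and the other four between 5.48 and 8.97. At the farthest, whose sequence is printed above, the fold was 7.04, 11.7 and 4.50 in DMSO and 11.6, 12.4 and 5.49 in doxycycline. All 5 carried H3K27ac, H3K4me1 and H3K4me2 in all 6 libraries and H3K27me3 in none. In each library the H3K27ac fold was identical at all 5, and so was the H3K4me1 fold. The same broad peak of each of these 2 marks was thus counted at all 5. They are not 5 independent cases in the counts of the list. The local input at the 5 regions was 17.3 to 19.3 fragments per base, against a median of 9.63 over all distal regions, and its part in the calls was not tested.

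EBF1, a transcription factor of neural and lymphoid cells, had 3 regions at 6.54 to 38.3 kb, 2 of them in its introns, with mean folds of 10.2 to 13.5 and no H3K27me3 call. TFAP2B, which acts in neural crest, had 2 that differed. The region 27.5 kb away had H3K27ac in all 6 libraries and H3K27me3 in none, and the one 93.6 kb away, in an intron of TFAP2D and 6.22 kb from a start of that gene, had H3K27me3 in all 6 and H3K27ac in none. SIX3, a forebrain homeobox gene, had 4, led by the LINC01833 start at 5.50 kb with a mean fold of 28.2 ± 7.60. SOX11, a factor of neuronal precursors, had 1 at 18.2 kb with a fold of 22.9 ± 8.24 and H3K27ac in 1 of 6 libraries. TWIST1, ISL1, SATB1 and KLF7 had 1 each, all with H3K27ac in 6 of 6.

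Short sequence motifs were counted on both strands in the 300 bp around each summit, as descriptions of these letters and with no inference about binding. The GC box GGGCGG was in 44.8% of distal and 65.4% of coding-start windows, and in 65.7% of those with H3K27me3 and no H3K27ac against 41.2% of the acetylated. The E-box CATCTG was in 18.2% of distal against 9.09% of coding-start windows, and the GATA motif AGATAA in 7.81% of distal against 3.02% of coding-start windows. A homeodomain motif, TAATNNAAT, was in 1.93% of distal against 0.372% of coding-start windows. The ETS motif CCGGAAG was in 14.8% of other-start windows and in 4.995% of those with no start. Median GC of the windows was 61.3% at distal and 69.7% at coding starts, which moves with these shares, and its part was not tested.

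Distal regions were unevenly placed. They made up 45.2% of the kept regions on chromosome 21 and 10.8% on chromosome 19. On chromosome 17 they numbered 3.59 per Mb, beside 9.76 per Mb for coding-start regions, and made up 26.9% of the kept regions. A further distal region lay within 10 kb of 683 (15.2%), and 2155 of 2974 nearest coding genes had a single distal region. In 111 cases the nearest coding start was over 1 Mb away, of which 45 were on chromosome 21, 16 on chromosome 9 and 12 each on chromosomes 20 and 22. TPTE was the nearest coding gene to 47 regions (chr21:5127086-10344011), 40 of them with H3K27ac in all 6 libraries.

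Many of these remote regions lay in repeated sequence. The 101 bp at the summit, the length of a read, occurred more than once in the genome, exactly and on either strand, for 407 distal regions (9.03%) and 1.56% of coding-start regions. The share was 53.2% of the 111 regions over 1 Mb from a coding start and 7.92% of the others. It was 32.0% at other starts, 10.8% at lncRNA starts and 5.77% without a start. Reads from such sequence cannot be assigned to a single copy, so the position of these regions is uncertain.

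Clusters differed in this respect. Near TPTE 39 of 47 regions had a repeated summit, as did 20 of 21 near PLS3 on the X chromosome, where a summit sequence had up to 20 copies and all 21 had H3K27ac in all 6 libraries. Near FRG2 at the end of chromosome 4, 10 of 11 were repeated, none had H3K4me1 in all 6 libraries and the median local input was 21.4 fragments per base. By the same exact match, 0 of 22 near DEFB115 on chromosome 20 and 0 of 10 near BCOR, a gene of a Polycomb complex, were repeated. Copies that differ at any base were not searched for, so a count of 0 does not show that reads there map to a single place. Median local input was 13.3 fragments per base near DEFB115 and 5.85 near BCOR. At BCOR 9 of the 10 had H3K27ac in all 6 and none had H3K27me3 in all 6, and at DEFB115 14 of the 22 had H3K27me3 in all 6. Regions over 1 Mb away had H3K4me1 in all 6 libraries in 53.2% of cases, against 78.4% of the rest.

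Doxycycline was compared with DMSO to ask whether the marks at these regions differed after RUNX1T1 knockdown. The H3K27ac share was 72.6% ± 3.47 in DMSO and 69.0% ± 3.75 in doxycycline (SD, n = 3), a difference of -3.63 points (exact two-sided permutation over 20 assignments, p = 0.3, adjusted over the 4 marks 0.6). The difference was negative in 3 of 3 same-numbered pairs (-4.37 to -3.15 points, SD of the pair differences 0.65). Same-numbered libraries deviated together in H3K27ac, and 3 pairs cannot give an exact sign-flip p below 0.25, the value here. The H3K27me3 share was 18.8% ± 3.09 and 22.04% ± 3.40, a difference of 3.19 points (exact permutation p = 0.3, adjusted 0.6), higher in 3 of 3 pairs. With the kind of fragment length estimate as a term it was 1.504 points (exact permutation within kinds, p = 0.444, the smallest possible being 0.111). The H3K4me1 and H3K4me2 differences were -0.99 and 1.00 points (exact permutation p = 0.7 each, adjusted 0.7). No test of 3 against 3 libraries can give a p below 0.1. The H3K4me1 difference changed sign without DMSO replicate 1 (1.30) or doxycycline replicate 2 (1.01), and the H3K4me2 difference did so without DMSO replicate 3 (-0.34).

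At single regions, presence in all 3 libraries of a treatment and in 0 of the other was counted. The background share of each mark counts merged regions with a peak in at least 1 library, so the distal counts are given as a share of distal regions with such a peak. For H3K27ac, 40 of 3583 distal regions (1.12%) were called in DMSO only, beside 2.7% of all 100382 merged H3K27ac regions, and 7 (0.195%) in doxycycline only, beside 0.6%. Both shares were below that background. Of the 40, 37 had no annotated start and 3 a lncRNA start. Their H3K27ac was weak where called, with a median fold of 2.47 (2.05 to 3.41), against 4.82 at distal regions called in all 6 libraries. Of coding-start regions, 27 (0.224%) and 21 (0.174%) were called in DMSO only and in doxycycline only.

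Counts for the other marks were smaller. For H3K4me1, 7 of 4383 distal regions (0.16%) were called in DMSO only and 0 in doxycycline only, beside 1.45% and 0.313% of all H3K4me1 regions. For H3K4me2 both counts were 0, beside 0.291% and 0.18%. For H3K27me3, 2 of 1236 (0.162%) were called in DMSO only and 15 (1.21%) in doxycycline only, beside 0.0386% and 0.42%. The H3K4me1 and H3K4me2 shares were below the background and the H3K27me3 shares above it. Of coding-start regions with any H3K27me3 peak, 0 and 29 (0.953%) were called in DMSO only and in doxycycline only. With peaks of q 0.001 or less, 2 distal regions in all separated the treatments by H3K27me3, in place of 17.

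The H3K27ac region beyond XPNPEP1 (chr10:108911457-108912977) led those called in DMSO only. Its H3K27ac fold was 2.17, 2.33 and 2.30 in DMSO with no peak in 3 doxycycline libraries. Its H3K4me3 fold was 21.0, 28.8 and 12.9 in DMSO and 34.0, 32.5 and 21.4 in doxycycline, and those groups overlapped. Next in rank were regions 32.9 kb from the keratin gene KRT80, 12.0 kb from FCGR2C and 23.2 kb from the kinase gene MAP3K7. The latter 2 had H3K27me3 in all 6 libraries, and the summit sequence near FCGR2C had 2 copies in the genome.

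Among the H3K27ac regions called in doxycycline only, that of highest rank lay 15.2 kb from TTLL10 and 8414 bp from the microRNA gene MIR200B (chr1:1156872-1158690). Its H3K27ac fold was 2.46, 1.81 and 1.88 in the doxycycline libraries, and it carried H3K27me3 in all 6. The lncRNA starts FAM182B and LINC01138 also had H3K27me3 in 6 libraries, and the remaining one named, in an intron of DRAXIN, an axon guidance gene, had it in 1. Of the 7 such regions, 4 had H3K27me3 in all 6 libraries.

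The H3K27me3 regions called in doxycycline only were led by the lncRNA start ENSG00000286389 (chr1:227787332-227789549), 23.6 kb from SNAP47, with a mean H3K4me3 fold of 30.8 ± 8.20. Its H3K27ac peak was present in 3 DMSO and 2 doxycycline libraries. Of the 15, 9 were CpG-rich and 12 had no annotated start. Median H3K27me3 fold at the 15 was 2.51, against 3.41 at distal regions with H3K27me3 in all 6 libraries.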

How the data were processed

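Peak lists of 5 histone marks in 6 libraries each were used, 30 lists from 34 samples, the remaining 4 being inputs. Per the labels and the study's methods the authors aligned reads to hg38 with Bowtie2, reporting 1 alignment per read, kept a mapping quality of at least 30 and called peaks per library with MACS2 2.1.1.20160309. The headers show broad peak calling for H3K4me1, H3K27ac and H3K27me3 (q 0.05, weak regions q 0.1) and narrow calling for the other marks (p 1e-05), all in single-end mode, and replicates 1 and 3 of a treatment list the same input totals. The deposited lists give pileup signal, fold enrichment over local input, and -log10 p and -log10 q values, all made by the authors' caller.

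Peaks were merged across the 6 H3K4me3 lists at 1 bp of overlap, and a mark was counted at a region where a peak of that library shared at least 1 bp. Members and lists were chosen with earlier results of these data known. Local input was taken as (pileup + 1) divided by fold, minus 1. Treatments were compared by exact two-sided permutation of libraries and classes by exact sign flips over libraries, with Benjamini-Hochberg adjustment over 4 marks. A self-test planted H3K27ac peaks at 200 of the 29774 merged regions in the doxycycline lists alone, and all 200 were counted. It checked the overlap code only, since the planting fixed the outcome, and it gives no detection rate. Named regions were, per class, the 6 of highest mean percentile and the 3 such with H3K27me3 in 6 libraries, up to 4 per mark and direction that separated the treatments, those at the thresholds, and regions of 48 listed lncRNAs and 24 listed transcription factor genes. Same-numbered libraries deviated together in H3K27ac (correlations 0.148 to 0.331) and H3K4me3 (0.235 to 0.417), all pairs above 0.1, while at least 1 pair of each other mark was below 0.1, and the labels do not say what the number marks. Alternatives were a stricter q, 50% coverage, lists of equal length, other member rules, each library left out and the replicate block. The 1000 bp window, the unique summit sequence and the fragment length term were added after seeing the data. Counts per peak are not given in the lists, so no count model was used. Python 3.11.15, pandas 2.3.3, scipy 1.17.1, pysam 0.24.0 and GENCODE release 44 were used.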

Additional observations from a re-analysis of the deposited data

How the results depend on the processing

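Of 189 alternatives that kept all libraries, 169 kept the direction and the side of the 0.05 threshold or, for a count, stayed within 1.5 times the reported count. Part of the 169 was fixed in advance. No treatment test can pass 0.05 with these libraries, so only the direction of a treatment difference could change. The replicate block leaves those differences unchanged, so it could not alter even the direction. With peaks of q 0.001 or less, the distal minus coding-start differences were -16.8 points for H3K27ac, -2.46 for H3K4me1, -1.91 for H3K4me2 and 1.51 for H3K27me3, none past the adjusted threshold, and the treatment difference in H3K4me1 was 0.78. With lists of equal length that treatment difference was 2.36. The distal minus coding-start difference in H3K4me1 was 23.7 at 50% coverage and 20.4 in the 1000 bp window, opposite to the whole region. That in H3K27me3 was -0.29 with at least 2 of 3 lists and 1.55 with unique summits. The lncRNA-start minus no-start difference in H3K4me2 was -0.17 with the start inside the region. Regions separating the treatments by H3K4me1, 7 as reported, numbered 17, 27, 37 and 19 (q, coverage, equal length, window), by H3K4me2, 0 as reported, 1 and 1 (coverage, equal length), and by H3K27me3, 17 as reported, 2, 6 and 8 (q, coverage, equal length). The causes were not tested.

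With 1 library left out, the treatment differences ran from -5.77 to -1.73 for H3K27ac, -3.42 to 1.30 for H3K4me1, -0.34 to 2.24 for H3K4me2 and 1.39 to 4.97 for H3K27me3. The lncRNA-start minus no-start differences ran from 5.85 to 6.73, -3.21 to -2.49, -1.02 to -0.76 and 4.70 to 5.02 for the same marks, and the distal minus coding-start differences from -14.4 to -13.1, -3.54 to -3.15, -2.16 to -1.51 and 2.74 to 3.49. With 5 libraries the smallest exact p is 0.0625, so no class difference could pass. Separating regions numbered 59 to 120 for H3K27ac, 14 to 38 for H3K4me1, 0 to 11 for H3K4me2 and 22 to 56 for H3K27me3, since fewer libraries have to match. The H3K4me1 difference was 1.01 without doxycycline replicate 2. With the replicate block the treatment differences in H3K27ac, H3K4me1, H3K4me2 and H3K27me3 were -3.63, -0.99, 1.00 and 3.19 (exact sign-flip p = 0.25, 0.25, 1 and 0.25), where 0.25 is the smallest p that 3 pairs allow, so the pairing could not make a call.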
